A study of Arabidopsis thaliana with 8 samples.

Results

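The genes described here are those whose response to brassinolide (BL), an active brassinosteroid (BR), differed between wild type and *iaa3* seedlings of *Arabidopsis thaliana*. They were chosen by 1 contrast over all 8 RNA-Seq libraries, the BL response of *iaa3* minus the BL response of wild type. Of 33518 loci in the count table, 20415 passed the filter on low counts and were tested, and 3589 (17.6%) had a difference in response called at an adjusted p-value under 0.05 by the quasi-likelihood test of edgeR (Benjamini-Hochberg adjustment, as for every adjusted p below). The called loci were sorted into lost, weakened, gained, strengthened and reversed responses by whether BL changed them in each genotype by at least 1.5-fold at an unadjusted p-value under 0.01. The differences in response and their adjusted p-values are the values that chose the loci, and are given as a description of them.

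Wild type was Col-0, and *iaa3* carried the dominant *iaa3/shy2-2* allele, likewise in the Col-0 background by the study's methods. All seedlings, controls included, grew for 5 days in darkness on 2 µM propiconazole (PPZ), which inhibits BR biosynthesis, and were then given mock solution or 100 nM BL for 4 hr, so the wild type control is itself short of BR. Each of the 4 groups (wild type mock, wild type BL, *iaa3* mock, *iaa3* BL) had 2 libraries from whole etiolated seedlings. The labels do not say whether these came from separate cultures, and the p-values measure only the spread between these libraries.

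Auxin acts by having the Aux/IAA repressor proteins degraded, which frees the auxin response factors (ARFs) that the repressors hold inactive. BR is sensed at the cell surface by the kinase BRI1, and its signal ends in gene control by BZR1 and its relatives. Both hormones promote elongation of the hypocotyl, the seedling stem, and share many target genes. The *shy2-2* protein resists degradation, so ARFs bound by IAA3 stay inactive when auxin is present. The contrast finds BL responses that differ between wild type and this mutant, and whether they need free ARFs was not tested. Because the allele stabilises the protein, the *IAA3* transcript does not check the label.

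Total counts ranged from 18107519 to 23183988 per library. Levels are given as CPM, the read count scaled to a common library size. A count of 3, used as an approximate upper limit where 0 was observed, was worth 0.12 to 0.172 CPM. Libraries within every group differed beyond sampling noise, most in wild type mock, where the chi-square divided by its degrees of freedom was 12.1 against 3.93 to 5.64 in the other groups. Wild type mock library 1 stood apart from library 2 in low-oxygen transcripts, with a summed CPM over 26 core hypoxia genes of 6547 against 2445. The same held for 15 seed storage transcripts, with 926 against 145. In *iaa3* mock, library 1 was likewise above library 2, with hypoxia sums of 9815 and 6857 and seed storage sums of 16.5 and 12.9. The etiolated label was checked with *PORA*, the dark form of protochlorophyllide oxidoreductase, which had at least 426 CPM in every library. *PORA* was itself among the called loci, with a difference in response of -0.59 on the log2 scale, so only its level serves as the check. Values for the hypoxia and seed storage lists without some of the libraries are given beside their counts.

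**Figure D1:**
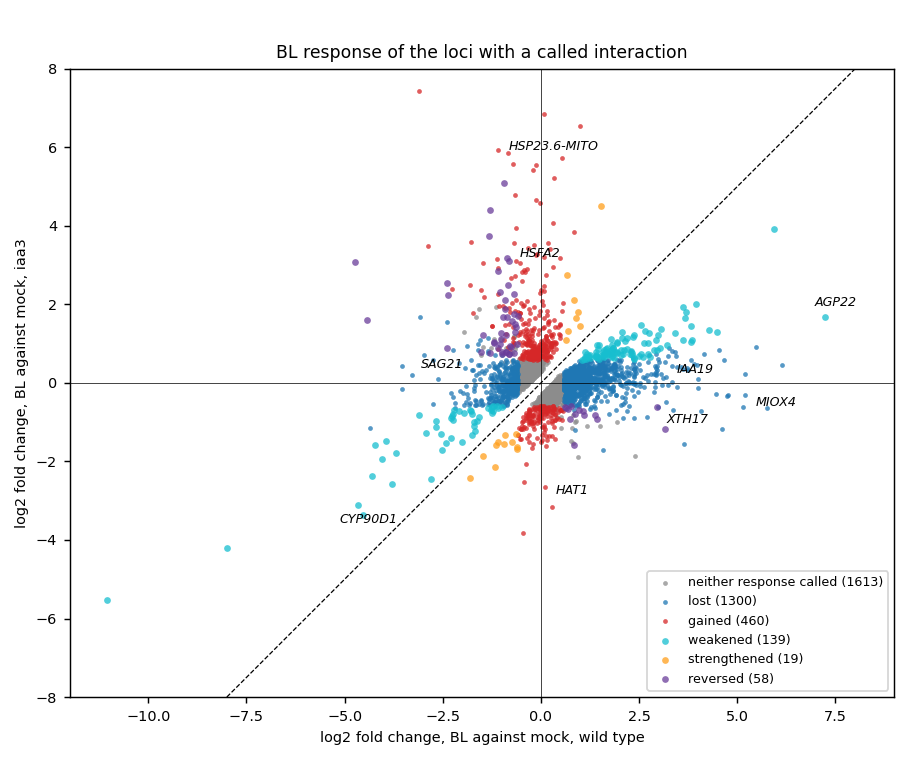
Each point is a locus with a called difference in BL response, placed by its log2 fold change with BL in wild type (horizontal) and in *iaa3* (vertical), and coloured by class, with the dashed diagonal marking equal responses. The 1300 lost loci lie along the horizontal axis, the 460 gained loci along the vertical axis and the 58 reversed loci in the upper left and lower right corners.

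BL responses were lower in *iaa3* at 2031 loci (9.95% of those tested) and higher at 1558 (7.63%). This split depended on scaling. With library size alone in place of the composition-corrected (TMM) factors, 43.8% of the called loci were lower and 56.2% higher, against 56.6% and 43.4% in the main fit, and the median wild type response of all tested loci moved from -0.01 to -0.11 on the log2 scale. Directions below are relative to the TMM scale, on which the median difference over all tested loci was 0.01. In whole seedlings, fewer cells of a type and less RNA per cell cannot be told apart. The count of called loci was 2028 without *iaa3* mock library 2, 2293 without wild type BL library 2 and 2346 without wild type BL library 1, and between 2525 and 4137 without any other library.

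In wild type, BL activated 1726 loci (8.45%) and repressed 1199 (5.87%). In *iaa3*, it activated 958 (4.69%) and repressed 706 (3.46%). The difference between genotypes was called for 1058 (61.3%) of the loci activated in wild type and for 458 (38.2%) of those repressed. Responses shared in direction were common: 680 loci were called in both genotypes with the same sign, and for 522 (76.8%) of these no difference between genotypes was called.

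Lost responses formed the largest class, with 1300 loci (6.37% of those tested), followed by 460 gained (2.25%), 139 weakened (0.681%), 58 reversed (0.284%) and 19 strengthened (0.0931%). The other 1613 called loci (7.9%) had a difference between genotypes without a called response in either. The percentages over all tested loci are the background against which the counts in gene lists are read below. In all 3589 called loci, each BL-to-mock ratio between libraries of one genotype lay on the same side of each ratio of the other genotype, which held for 46.0% of all tested loci. The difference was at least 2-fold at 1029 called loci.

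**Figure D2:**
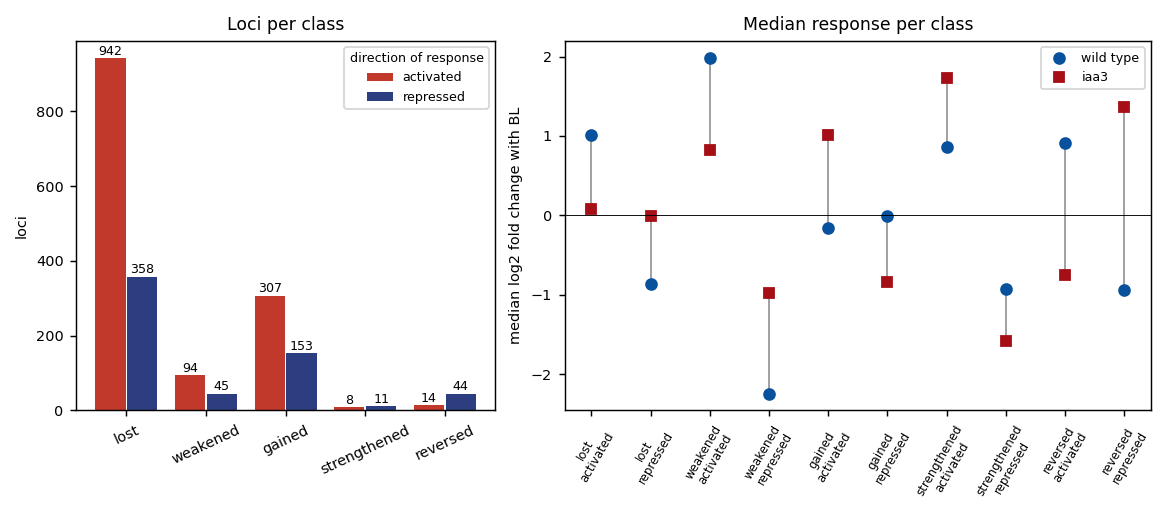
The left panel gives the number of loci in each class, split by the direction of the response that names the class (the wild type direction for all but gained). The right panel joins the median log2 fold change with BL in wild type (circles) and in *iaa3* (squares) per class, from 1.01 to 0.09 for the 942 lost activations and from -0.94 to 1.36 for the 44 wild type repressions that reversed.

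Among lost responses, 942 were activations in wild type (4.61% of tested loci) and 358 repressions (1.75%). With library size alone the numbers were 755 and 545, so the share of activations was 72.5% in the main fit and 58.1% there. The median wild type CPM of the lost activations rose from 20.5 in mock to 43.6 with BL, and in *iaa3* it was 21.3 in mock and 22.3 with BL. A response that was not called is not shown to be absent: at 346 of the 1300 lost loci the *iaa3* response had the wild type direction with an unadjusted p-value under 0.05, and at 524 it had the opposite sign. Untreated levels were within 1.5-fold of each other in the 2 genotypes at 586 of the 942 lost activations (62.2%) and at 15818 of all tested loci (77.5%). In mock, *iaa3* was at least 1.5-fold above wild type at 212 lost activations and at least 1.5-fold below at 144. The class thus holds loci with a like starting level in both genotypes and loci that started from another level in *iaa3*.

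Among lost activations that have a symbol, no group at or below 3 counts in each library (the count limit) and a log2 CPM that averages 3 or more, the largest difference was that of *MIOX4*, an inositol oxygenase that feeds the supply of wall sugars. The same limits apply wherever a gene is called the largest below. In CPM, *MIOX4* had 1.41 and 1.12 with mock and 46.8 and 45.3 with BL in wild type, and 5.54 and 7.08 with mock and 4.65 and 5.48 with BL in *iaa3*. Both *iaa3* groups lay between the wild type groups and overlapped neither of them. The log2 fold change with BL was 5.19 in wild type and -0.31 in *iaa3*, a difference of -5.50 ± 0.22 (SE, adjusted p = 5.95e-07). *IAA19*, an Aux/IAA gene known as a target of both hormones, had 10.9 and 11.6 CPM with mock and 106 and 98.7 with BL in wild type, and 3.40 and 2.68 with mock and 4.08 and 2.74 with BL in *iaa3*. All *iaa3* libraries were below all wild type libraries, with or without BL. Its difference in response was -3.04 ± 0.23 (adjusted p = 1.07e-05).

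The 250 bases before the RefSeq start of these genes are shown because they contrast a lost activation with no searched motif (*MIOX4*) with one rich in them (*IAA19*). They are on the plus strand of TAIR10.1 at chr4:13297445-13297694 and chr3:5263751-5264000, 5′ to 3′. Capitals mark matches, on either strand, to the auxin response element TGTCTC, the high-affinity ARF site TGTCGG, the G-box CACGTG, the E-box variant CACATG, the BR response elements CGTGTG and CGTGCG, or the heat shock element, which is 3 alternating units of GAA and TTC set 2 bases apart.
MIOX4: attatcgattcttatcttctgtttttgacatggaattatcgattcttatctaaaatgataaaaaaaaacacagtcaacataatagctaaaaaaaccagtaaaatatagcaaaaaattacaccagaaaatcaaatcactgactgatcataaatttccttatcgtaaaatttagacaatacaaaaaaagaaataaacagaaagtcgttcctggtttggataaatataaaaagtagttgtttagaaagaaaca
IAA19: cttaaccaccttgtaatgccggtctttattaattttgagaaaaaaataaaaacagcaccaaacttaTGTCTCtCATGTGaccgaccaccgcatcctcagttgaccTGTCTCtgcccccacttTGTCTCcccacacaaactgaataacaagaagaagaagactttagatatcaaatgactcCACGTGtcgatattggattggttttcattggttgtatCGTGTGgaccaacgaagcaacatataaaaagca
In *IAA19*, TGTCTC began at -184, -145 and -128 from the start, CACATG at -177, CACGTG at -70 and CGTGTG at -33. A match is a description of letters and not a binding site.

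**Figure D3:**
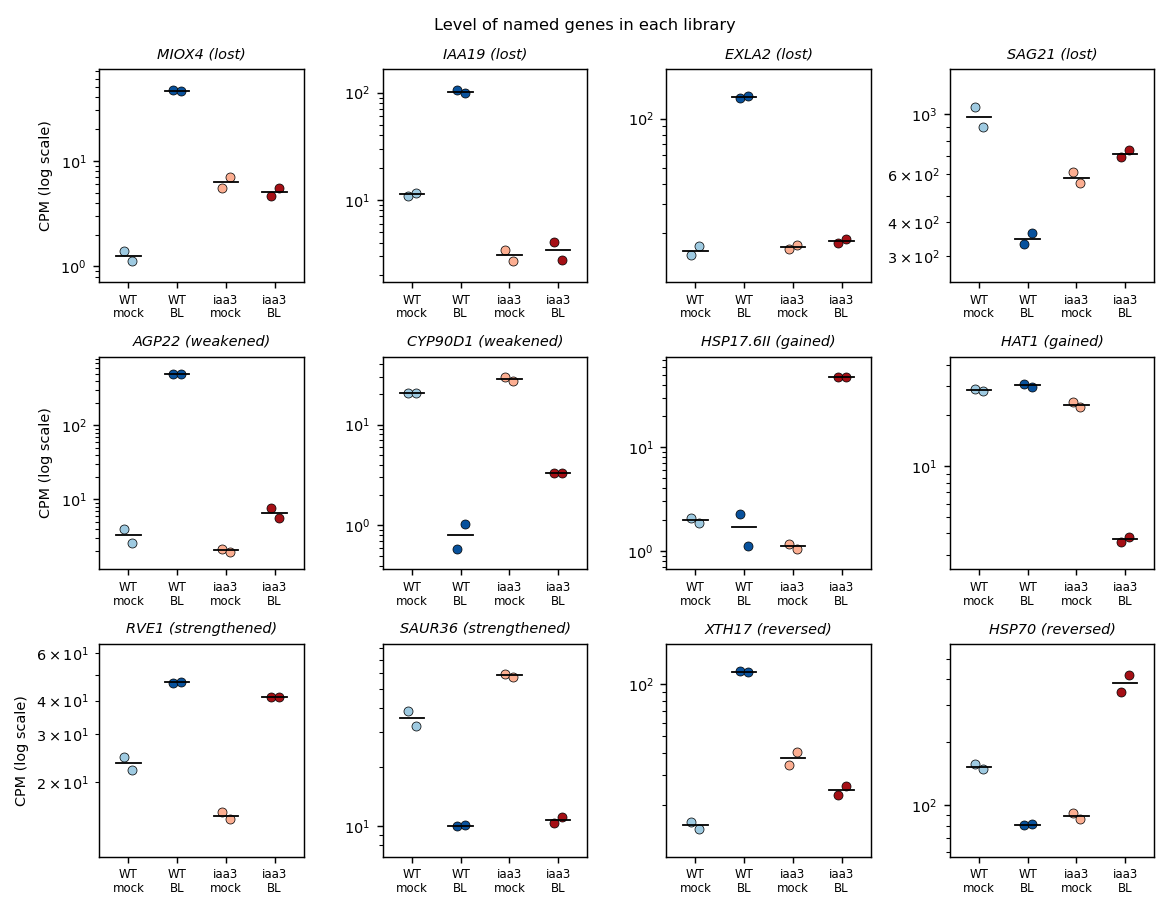
Each panel gives the CPM of 1 gene on a logarithmic axis in the 8 libraries, with points for libraries and bars for group means, and the class in the title. The BL libraries of *iaa3* are near its mock libraries for the lost genes, far above them for *HSP17.6II* and *HSP70*, and below them for *HAT1* and *XTH17*.

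Other lost activations of large size follow. *EXLA2*, an expansin-like wall protein, had 14.7 and 16.6 CPM with mock and 133 and 138 with BL in wild type, and 16 and 16.9 with mock and 17.4 and 18.5 with BL in *iaa3*. Here the mock levels of the genotypes were alike and only wild type BL stood apart, with a difference in response of -2.98 ± 0.12 (adjusted p = 5.95e-07). *PRP2*, a proline-rich wall protein, rose by 3.44 on the log2 scale in wild type and had a log2 fold change of 0.68 in *iaa3*. This *iaa3* change was over 1.5-fold and missed its call only at an unadjusted p-value of 0.0103 (quasi-likelihood test). *PRP2* thus lay at the border between lost and weakened. *PPa4*, a soluble pyrophosphatase, had log2 fold changes of 2.94 and 0.28. *FLA13*, a fasciclin-like arabinogalactan protein, had 39.6 and 36.1 CPM with mock and 159 and 164 with BL in wild type, against 131 and 127 with mock and 82.2 and 96.1 with BL in *iaa3*. Its untreated level in *iaa3* was already close to that of wild type BL, and BL moved the genotypes in opposite directions (2.10 and -0.53). *GDPD2*, a glycerophosphodiester phosphodiesterase, likewise started high in *iaa3*, with 579 and 620 CPM in mock against 155 and 142 in wild type, and had log2 fold changes of 0.20 in *iaa3* and 2.69 in wild type.

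*IAA3* itself (*SHY2* in RefSeq) was a lost activation. It had 45.2 and 45.0 CPM with mock and 129 and 121 with BL in wild type, and 13.7 and 11.1 with mock and 11.4 and 12.9 with BL in *iaa3*. The *iaa3* libraries were below those of wild type throughout, and the difference in response was -1.49 ± 0.14 (adjusted p = 5.56e-05).

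In 5 lost activations no *iaa3* library exceeded 3 counts, and the *iaa3* response could not be measured. *SAUR19*, a small auxin-up RNA gene of the elongating hypocotyl, had 65 and 62 counts without BL in wild type and 638 and 607 with BL, a 10.3-fold rise, but 2 and 2 counts with mock and 1 and 1 with BL in *iaa3*. *SAUR15* had 12 and 5 counts without BL in wild type and 218 and 231 with BL (27.0-fold), with 2, 1, 1 and 1 counts in the *iaa3* libraries. No fold is given for *iaa3*. Each call was lost without *iaa3* mock library 1 (adjusted p = 0.0757 for *SAUR19* and 0.208 for *SAUR15*) or library 2 (0.0893 and 0.0685), and that of *SAUR15* also without either wild type BL library or *iaa3* BL library 2 (0.0544 to 0.0584). *SAUR* genes lie in clusters of near-identical copies, and how reads matching several copies were counted is not given in the sources used here, so single *SAUR* values are uncertain.

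Among the 358 lost repressions, the median wild type CPM fell from 18 to 9.53, and in *iaa3* it was 16.2 in mock and 16.8 with BL. *SAG21*, a late embryogenesis abundant protein tied to stress and ageing, had 1064 and 900 CPM with mock and 331 and 364 with BL in wild type, and 610 and 558 with mock and 696 and 737 with BL in *iaa3*. The *iaa3* libraries all lay between the wild type groups. Its difference in response was 1.79 ± 0.13 (adjusted p = 9.5e-06). *UCC1*, a copper-binding uclacyanin, had 29.8 and 33.0 CPM with mock and 9.41 and 9.92 with BL in wild type, and between 10.3 and 12.9 in all 4 *iaa3* libraries, so the untreated *iaa3* level was already close to the level that BL gave in wild type. *GASA4*, a gibberellin-responsive peptide gene, had 2410 and 2237 CPM with mock and 1056 and 962 with BL in wild type, but 249 and 230 with mock and 347 and 284 with BL in *iaa3*. All *iaa3* libraries were below all wild type libraries, and the difference in response was 1.60 ± 0.14 (adjusted p = 3.38e-05).

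Within the same limits on level and symbol, the largest difference among lost repressions was that of *HB1*, a plant hemoglobin induced by low oxygen. In CPM, *HB1* had 189 and 55.0 with mock and 40.5 and 54.7 with BL in wild type, and 472 and 311 with mock and 827 and 897 with BL in *iaa3*. One wild type mock library was high, the other was close to the higher wild type BL library, and all *iaa3* libraries were above all wild type libraries. The difference in response was 2.49 ± 0.59 (adjusted p = 0.015). It was 1.34 without wild type mock library 1 and 3.11 without library 2, and its adjusted p was 0.0824 without wild type BL library 1, 0.0515 without wild type BL library 2 and 0.067 without *iaa3* mock library 2. *ACO1*, an ACC oxidase that makes ethylene and is raised in low oxygen, had the same form, with 49.4 and 19.6 CPM with mock and 12.1 and 14.6 with BL in wild type, and 97.9 and 102 in *iaa3* BL over 65.5 and 47.7 in *iaa3* mock. Its difference of 2.18 ± 0.45 was 1.37 without wild type mock library 1 and lost its call without wild type BL library 1 (adjusted p = 0.0507). *YLS9*, a gene of ageing leaves, had a difference of 1.61 ± 0.34, with an adjusted p of 0.0543 without wild type BL library 2. The 250 bases before the start of *HB1*, shown as those of the largest lost repression within these limits, are on the minus strand of TAIR10.1 at chr2:6983778-6984027. Capitals mark the 1 match, CACATG at -198.
HB1: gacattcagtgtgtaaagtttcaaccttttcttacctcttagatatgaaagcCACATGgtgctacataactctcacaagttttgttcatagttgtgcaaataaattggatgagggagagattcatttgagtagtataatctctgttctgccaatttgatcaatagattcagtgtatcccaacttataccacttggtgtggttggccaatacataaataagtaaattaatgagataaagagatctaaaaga

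Weakened responses kept their direction at a smaller size, in 94 activated and 45 repressed loci. The medians were 1.99 in wild type and 0.83 in *iaa3* for activated loci, and -2.24 and -0.97 for repressed loci. *AGP22*, a small arabinogalactan protein of the wall, had 4.04 and 2.55 CPM with mock and 496 and 492 with BL in wild type, and 2.15 and 1.95 with mock and 7.63 and 5.63 with BL in *iaa3*. BL raised it in both genotypes, by 7.24 and 1.68 on the log2 scale, and the difference was -5.56 ± 0.32 (adjusted p = 1.72e-06). *LRX2*, a leucine-rich repeat extensin of the wall, rose by 3.83 and 1.04. *AGP4* had 72.1 and 47.7 CPM with mock and 642 and 642 with BL in wild type, against 12.2 and 11.8 with mock and 34.3 and 23.9 with BL in *iaa3*. The *iaa3* BL level of *AGP4* remained below that of untreated wild type.

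On the repressed side, *CYP90D1*, a cytochrome P450 of BR biosynthesis under feedback from BR, had 20.7 and 20.6 CPM with mock and 0.582 and 1.03 with BL in wild type, and 29.9 and 26.9 with mock and 3.33 and 3.29 with BL in *iaa3*. The mock libraries were high and the BL libraries low in both genotypes, with log2 fold changes of -4.67 and -3.10 and a difference of 1.57 ± 0.26 (adjusted p = 0.00203). In the main fit it was the only 1 of 7 BR biosynthesis genes tested with a called difference. With library size alone, DESeq2, the robust fit or the replicate block, 2 were called. The median difference over the list was 0.36, and 6 of the 7 were called repressed in wild type and 6 in *iaa3*. *XTH7* and *XTH32*, xyloglucan endotransglucosylase/hydrolases that cut and rejoin wall xyloglucan, fell by 2.66 and 2.67 in wild type and by 0.96 and 1.12 in *iaa3* on the log2 scale. *ACS11*, an ACC synthase of ethylene biosynthesis, had 269 and 307 counts without BL in wild type and 0 and 0 with BL, and 104 and 125 counts in *iaa3* mock and 1 and 3 with BL. The wild type fall was at least 91.1-fold against a limit of 3 counts per library. No bound is given for *iaa3*, where BL counts of 1 and 3 can stand for more than 3 counts per library. The sizes of these 2 falls of *ACS11* cannot be compared. Its call was lost without either wild type BL library (adjusted p = 0.0715 and 0.0745) and without *iaa3* BL library 2 (0.179).

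Gained responses were 307 activations (1.5% of tested loci) and 153 repressions (0.749%) in *iaa3*. The median log2 fold change of the gained activations was 1.01 in *iaa3* and -0.15 in wild type. The gained count was 282 without *iaa3* mock library 2 and between 308 and 577 without another library. The named gained activations included small heat shock proteins, chaperones that hold unfolding proteins. *HSP23.6-MITO* had 1.45 and 0.518 CPM with mock and 0.403 and 0.491 with BL in wild type, and 1.07 and 0.635 with mock and 52.9 and 52.4 with BL in *iaa3*. Both *iaa3* BL libraries stood apart from the other 6. The difference in response was 7.02 ± 0.58 (adjusted p = 2.03e-05), and 6.14 without wild type mock library 1. Its 250 upstream bases, shown for the largest gained activation within the limits on level and symbol, are on the plus strand of TAIR10.1 at chr4:12916676-12916925 and hold no searched motif.
HSP23.6-MITO: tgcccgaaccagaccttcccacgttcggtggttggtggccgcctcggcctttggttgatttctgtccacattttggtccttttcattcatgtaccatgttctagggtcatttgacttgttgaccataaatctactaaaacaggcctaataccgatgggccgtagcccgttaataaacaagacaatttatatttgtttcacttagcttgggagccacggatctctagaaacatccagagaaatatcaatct

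*ATHSP22.0*, *HSP17.6II* and *HSP17.6A*, also small heat shock proteins, had the same form. In CPM, *HSP17.6II* had between 1.04 and 2.28 in the other 6 libraries and 47.5 and 47.2 in *iaa3* BL, a difference in response of 5.62 ± 0.36 (adjusted p = 3.35e-06), and 6.22 without wild type BL library 1. *ATHSP22.0* had at most 3.13 CPM outside *iaa3* BL and 49.0 and 55.2 within it, and *HSP17.6A* at most 8.78 outside and 96.6 and 107 within. *HSP21*, the plastid member, had 17 and 3 counts with mock and 2 and 0 with BL in wild type, and 7 and 0 with mock and 507 and 542 with BL in *iaa3*. *HSP101*, a chaperone that dissolves protein aggregates, had 33.8 and 28.7 CPM with mock and 27.1 and 22.1 with BL in wild type, and 20.9 and 21.2 with mock and 142 and 175 with BL in *iaa3*. Each of these genes was at its highest in both *iaa3* BL libraries. *DREB2A*, a transcription factor of drought and heat responses, rose by 1.83 in *iaa3* and had a log2 fold change of 0.14 in wild type.

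The seed storage cruciferin *CRA1* was also a gained activation. It had 618 and 97.6 CPM with mock and 264 and 190 with BL in wild type, and 3.84 and 1.45 with mock and 21.8 and 124 with BL in *iaa3*. The replicates differed from each other by more than 2-fold in 3 of the 4 groups, and no *iaa3* mock library overlapped with wild type. The difference of 5.44 ± 1.33 (adjusted p = 0.018) ranged from 3.56, without wild type mock library 1, to 6.30, without *iaa3* mock library 1. It was 6.21 without wild type mock library 2 and 6.20 without *iaa3* BL library 1. It lost its call without wild type BL library 1 (adjusted p = 0.0629), wild type BL library 2 (0.0824), *iaa3* mock library 2 (0.0847) or *iaa3* BL library 2 (0.0669). Of 15 seed storage and oleosin genes only *CRA1* was called, at a median difference of 2.64 over the list. The median was 0.80 without wild type mock library 1 and 0.86 without *iaa3* BL library 2. The number called was 8 of 16 tested without wild type mock library 2, 5 of 16 without *iaa3* BL library 1, and 0 without wild type BL library 1, wild type BL library 2, *iaa3* mock library 2 or *iaa3* BL library 2, and also 0 with voom or the robust fit.

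The gained repressions included auxin-related genes. *HAT1*, a homeodomain-leucine zipper factor of shade and auxin responses, had 28.5 and 28.0 CPM with mock and 30.8 and 29.6 with BL in wild type, and 24.0 and 22.3 with mock and 3.56 and 3.84 with BL in *iaa3*. Levels were alike in 3 groups and fell in *iaa3* BL alone, with a difference in response of -2.74 ± 0.13 (adjusted p = 7.62e-07). *IAA7*, another Aux/IAA gene, had 349 and 342 CPM with mock and 342 and 338 with BL in wild type, against 119 and 118 in *iaa3* mock and 63.1 and 63.8 with BL. *PIN7* and *PIN3*, auxin efflux carriers, fell by 0.88 and 0.88 on the log2 scale in *iaa3*, with wild type log2 fold changes of -0.06 and -0.33. *GH9B15*, a glycosyl hydrolase of the endoglucanase family, had 36.3 and 36.2 CPM with mock and 44.3 and 47.8 with BL in wild type, and 10.7 and 11.7 with mock and 5.57 and 2.94 with BL in *iaa3*. *GLYI7*, a glyoxalase, had 217 and 255 CPM in *iaa3* mock, above all other libraries, and 87.2 and 89.8 in *iaa3* BL, against between 61.0 and 74.4 in wild type. The repression there brought a raised level down towards that of wild type. *CER1*, an enzyme of wax alkane synthesis, had a difference of -1.25 ± 0.33 that lost its call without either wild type BL library (adjusted p = 0.0841 and 0.0683), *iaa3* mock library 2 (0.117) or *iaa3* BL library 1 (0.0795).

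Strengthened responses were few, 8 activated and 11 repressed, and their count ranged from 8 to 31 as libraries were left out (8 without wild type BL library 1, 9 without wild type BL library 2, 11 without *iaa3* mock library 2 and 31 without *iaa3* BL library 1). *GulLO2*, a gulonolactone oxidase, had 44.4 and 32.9 CPM with mock and 26.7 and 23.8 with BL in wild type, and 92.6 and 95.0 with mock and 32.4 and 28.5 with BL in *iaa3*. BL levels were close in both genotypes, the untreated levels were not, and the difference in response was -1.01 ± 0.18 (adjusted p = 0.00304). *SAUR36*, a *SAUR* gene that BL repressed, fell by 1.81 in wild type and 2.43 in *iaa3* on the log2 scale, a difference of -0.62 ± 0.14 (adjusted p = 0.0109). *IBH1*, a helix-loop-helix inhibitor of cell elongation, fell by 1.15 and 1.58. *RVE1*, a clock-associated MYB factor, had 24.7 and 22.1 CPM with mock and 46.5 and 47.1 with BL in wild type, and 15.4 and 14.6 with mock and 41.1 and 41.4 with BL in *iaa3*. It rose in both genotypes, from a lower start in *iaa3*. Its difference of 0.46 ± 0.11 had an adjusted p of 0.0153, and 0.0558 without wild type mock library 1, 0.0519 without wild type BL library 1 and 0.0785 without *iaa3* mock library 2. Calls for *ERD7*, a dehydration-responsive gene, and *DOX1*, an alpha-dioxygenase, were lost without wild type BL library 1 (adjusted p = 0.0987 and 0.0898), wild type BL library 2 (0.109 and 0.0579) or *iaa3* mock library 2 (0.128 and 0.0893), and that of *ERD7* also without wild type mock library 1 (0.085) or *iaa3* BL library 2 (0.0988).

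Reversed responses, called in opposite directions, comprised 14 loci that BL activated in wild type and repressed in *iaa3* and 44 of the opposite kind. The count was 121 without wild type mock library 2 and between 42 and 73 without any other library. *XTH17*, a wall enzyme of the xyloglucan endotransglucosylase/hydrolase family, had 16 and 14.5 CPM with mock and 119 and 119 with BL in wild type, and 34.0 and 40.4 with mock and 23 and 25.8 with BL in *iaa3*. Untreated *iaa3* was above untreated wild type, BL moved the genotypes apart, and the difference in response was -3.57 ± 0.14 (adjusted p = 5.95e-07). *XTH18*, a close relative whose reads may be shared with *XTH17*, was a lost activation, with log2 fold changes of 1.89 and 0.49. *LBD15*, a LOB-domain transcription factor, had log2 fold changes of 3.15 and -1.17. *GH3.3*, an enzyme that conjugates auxin to amino acids, had 24.5 and 16.6 CPM with mock and 62.9 and 47.1 with BL in wild type, and 21.7 and 20.1 with mock and 10.9 and 11.2 with BL in *iaa3*. *BSK5*, a BR-signalling kinase, had 32.8 and 31.4, 83.9 and 82.2, 9.92 and 9.53, and 5.40 and 5.58 CPM in the same order, with every *iaa3* library below every wild type library.

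The named reversals of the other kind were the heat shock factor *HSFA2* and chaperones. *HSFA2* had 4.35 and 3.75 CPM with mock and 2.51 and 2.10 with BL in wild type, and 5.32 and 4.18 with mock and 38 and 43.9 with BL in *iaa3*. *HSP90.1* had 73.9 and 67.2 CPM with mock and 39.8 and 38.7 with BL in wild type, and 56.9 and 48.0 with mock and 262 and 323 with BL in *iaa3*. *HSP70* had 157 and 149 CPM with mock and 80.5 and 81.5 with BL in wild type, and 92.1 and 85.9 with mock and 346 and 417 with BL in *iaa3*. For these 3 genes both wild type BL libraries were the lowest and both *iaa3* BL libraries the highest of all. The differences in response were 3.92 ± 0.23, 3.33 ± 0.16 and 3.02 ± 0.13 (adjusted p = 2.25e-06, 7.62e-07 and 6.28e-07). The 250 bases before *XTH17* (plus strand, TAIR10.1, chr1:24256804-24257053) and *HSFA2* (plus strand, chr2:11135374-11135623), the largest reversal of each kind within the limits on level and symbol, are shown with matches in capitals. *XTH17* held CACATG at -63, and *HSFA2* the heat shock element at -88 and CACGTG at -56.
XTH17: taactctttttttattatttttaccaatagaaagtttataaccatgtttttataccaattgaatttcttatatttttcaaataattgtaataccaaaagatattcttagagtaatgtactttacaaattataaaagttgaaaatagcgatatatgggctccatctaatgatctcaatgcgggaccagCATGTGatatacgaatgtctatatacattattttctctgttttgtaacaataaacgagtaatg
HSFA2: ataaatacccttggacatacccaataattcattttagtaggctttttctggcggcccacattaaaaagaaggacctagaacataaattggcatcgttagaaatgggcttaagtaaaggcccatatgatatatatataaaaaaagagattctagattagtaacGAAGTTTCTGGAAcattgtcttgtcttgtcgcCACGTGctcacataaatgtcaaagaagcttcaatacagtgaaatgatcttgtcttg

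The 1613 loci with a called difference and no called response had smaller differences, with medians of 0.50 for the 796 higher and -0.49 for the 817 lower in *iaa3*, and at 1382 of them the 2 genotypes had responses of opposite sign. This class moved with the choice of libraries, from 607 loci without *iaa3* mock library 2 to 1956 without wild type mock library 2. It was 778 without wild type BL library 2, 845 without wild type BL library 1, 882 without *iaa3* mock library 1, 1000 without *iaa3* BL library 2 and 1063 without *iaa3* BL library 1. *HSP81-2*, a cytosolic HSP90, had log2 fold changes of -0.53 and 0.53. *PKS2*, a phytochrome kinase substrate of phototropism, had 0.55 and -0.55. *ADH1*, alcohol dehydrogenase, belonged here because its replicates were far apart, with 386 and 52.9 CPM with mock and 54.6 and 93.0 with BL in wild type, and 1015 and 431 with mock and 2555 and 2756 with BL in *iaa3*. The *ADH1* difference of 3.45 ± 0.95 was 1.39 without wild type mock library 1 (adjusted p = 0.0926), 4.25 without wild type mock library 2 and 4.19 without *iaa3* mock library 1. The call was also lost without wild type BL library 1 (0.137), wild type BL library 2 (0.0817), *iaa3* mock library 2 (0.114) or *iaa3* BL library 2 (0.056). At the threshold, *AT3G19895* and *AT1G52780* were just inside (differences of -0.33 ± 0.10 and 0.41 ± 0.13) and *VPS26A* and *GUT2* just outside (-0.40 ± 0.12 and 0.64 ± 0.20).

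**Figure D4:**
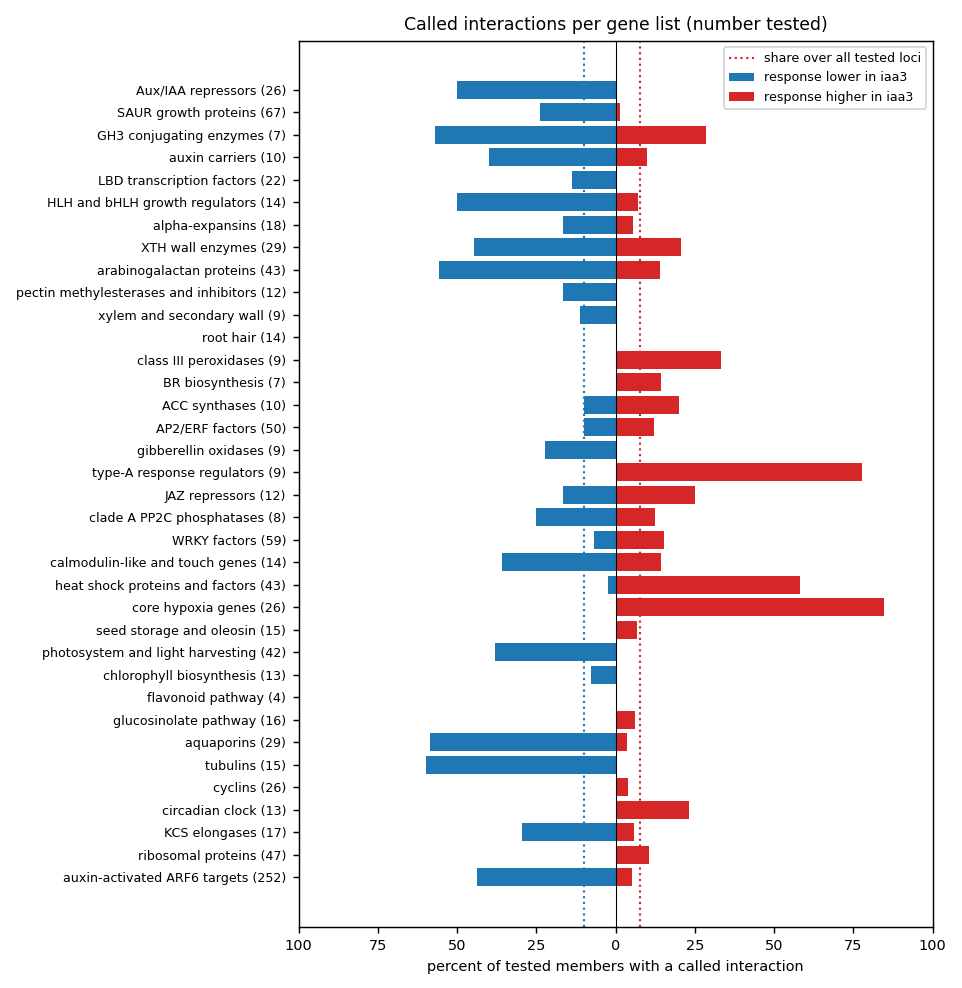
Bars give, for each of 36 gene lists, the percent of tested members (number in parentheses) with a called difference, to the left where the response was lower in *iaa3* and to the right where it was higher, with dotted lines at the shares over all tested loci (9.95% and 7.63%). Aux/IAA, arabinogalactan, aquaporin and tubulin lists lie mainly to the left, and type-A response regulator, heat shock and hypoxia lists to the right.

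By function, the Aux/IAA, *SAUR*, *GH3* and auxin carrier lists had more lower than higher calls in *iaa3*. Of 26 Aux/IAA repressor genes, 13 were called lower and 0 higher, at a median difference of -0.52 on the log2 scale against 0.01 over all tested loci. Of the 13, 6 were lost activations (*IAA19*, *IAA3*, *ATAUX2-11*, *IAA14*, *IAA34* and *AXR3*), 3 were gained repressions, 1 was strengthened and 3 had no called response. The count was 7 without *iaa3* mock library 2. *ATAUX2-11* (*IAA4*) had 189 and 185 CPM with mock and 283 and 290 with BL in wild type, and 128 and 124 with mock and 99.3 and 87.3 with BL in *iaa3*, so BL moved the genotypes apart. *AXR3* (*IAA17*) had 90.1 and 85.8, 173 and 162, 15.3 and 17.7, and 20.0 and 22.6 CPM in the same order, with *iaa3* low throughout.

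Of 67 *SAUR* genes, a family with members that promote cell expansion, 16 were called lower and 1 higher, at a median difference of -1.20. However, 23 had a group at or below 3 counts in every library. Without these the median was -0.44, and no bound can be given for a member that is at the limit in both *iaa3* groups, as 21 were. BL activated 38 of the 67 in wild type and 7 in *iaa3*, and the number called lower was 7 without *iaa3* mock library 1 and 10 without *iaa3* mock library 2 or wild type BL library 2. The summed *SAUR* level went from 328 and 274 CPM to 703 and 672 with BL in wild type, and was 334 and 314 with mock and 312 and 314 with BL in *iaa3*. Untreated sums were thus close in both genotypes and only the wild type BL sum was higher. Untreated levels of single members were not all alike. *SAUR19* had 65 and 62 counts in wild type mock against 2 and 2 in *iaa3* mock. *SAUR36* had 38.3 and 32.5 CPM in wild type mock against 59.2 and 57.5 in *iaa3* mock. *SAUR9*, for which BL raised both genotypes, rose by 3.95 and 2.00 on the log2 scale. Of 7 *GH3* genes, 4 were called lower and 2 higher (1 higher with any library but wild type mock library 2 or *iaa3* BL library 1 left out), and the median difference was -0.82 (-0.99 without the 1 gene at the count limit). *BRU6* (*GH3.2*) had log2 fold changes of 0.82 and -0.34, and *GH3.17* of 0.93 and 0.11. Of 10 auxin carriers, 4 were called lower and 1 higher. Of 22 LBD factors, 3 (13.6%, below the background of 17.6%) were called lower and 0 higher, with 1 lower without wild type BL library 2 or *iaa3* mock library 2 and 6 without wild type mock library 2. Their median difference of -0.08 became 0.05 without wild type BL library 2.

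The study's list of auxin-activated ARF6 targets held 252 tested genes, of which 110 were called lower and 13 higher in *iaa3* (85 to 116 lower as libraries were left out, and 8 higher without wild type BL library 2 or *iaa3* mock library 1). The called members comprised 61 lost, 11 weakened and 4 reversed activations and 14 gained repressions. The rest were 8 lost, 2 weakened, 1 strengthened and 1 reversed repressions and 21 with neither response called. The median difference over the list was -0.61 (-0.49 without 28 members at the count limit). BL activated 120 of the 252 in wild type and 25 in *iaa3*. The study drew the list from ARF6 binding (ChIP-Seq) and auxin responses, not from these libraries. Among 14 helix-loop-helix growth regulators, a network that tunes elongation, 7 were called lower and 1 higher. *KDR* (*PRE6*) had 11.1 and 9.57 CPM with mock and 42.3 and 41.6 with BL in wild type, and between 1.27 and 2.14 in all *iaa3* libraries. *PAR1*, which limits shade responses, had log2 fold changes of 0.97 and 0.23 from alike mock levels.

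Cell wall lists were divided by family. Of 43 arabinogalactan and fasciclin-like proteins, 24 were called lower and 6 higher, at a median difference of -1.01 (-0.87 without 3 members at the count limit), and 18 were lost activations. The summed level rose from 1807 and 1713 CPM to 6059 and 6049 in wild type, and was 1658 and 1759 with mock and 1848 and 1931 with BL in *iaa3*. *AGP21* had 41.1 and 38.6 CPM with mock and 304 and 315 with BL in wild type, and 27.2 and 25.1 with mock and 35.5 and 30.7 with BL in *iaa3*. *FLA2* had log2 fold changes of 1.82 and -0.21, and *AGP13* of 5.49 and 0.92. The 6 higher members (3 without wild type BL library 2) were 3 lost repressions and 3 gained activations. Of 29 *XTH* genes, 13 were called lower and 6 higher. *XTH4* had 372 and 358 CPM with mock and 2046 and 1867 with BL in wild type, and 377 and 343 with mock and 471 and 464 with BL in *iaa3*, a difference in response of -2.05 ± 0.11 (adjusted p = 1.28e-06). *TCH4* (*XTH22*), known as a touch- and BR-induced gene, had 102 and 95.1 CPM in wild type mock but 447 and 449 in *iaa3* mock, near the 501 and 511 of wild type BL, and reached 638 and 759 in *iaa3* BL. It was weakened, yet its level was highest in *iaa3* BL. Of 18 alpha-expansins, 3 were called lower and 1 higher, and the median difference changed sign with library size alone. The number lower was 1 without either BL library of wild type, *iaa3* mock library 2 or *iaa3* BL library 2, and the number higher was 2 without *iaa3* mock library 1 or either *iaa3* BL library. *EXPA9* was a lost repression (-1.09 and -0.14) and *EXPA1* a weakened activation (1.58 and 0.69). Of 12 pectin methylesterases and their inhibitors, 2 were called lower and 0 higher, and 0 lower without wild type BL library 1 or *iaa3* mock library 2 and 1 without wild type BL library 2.

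**Figure D5:**
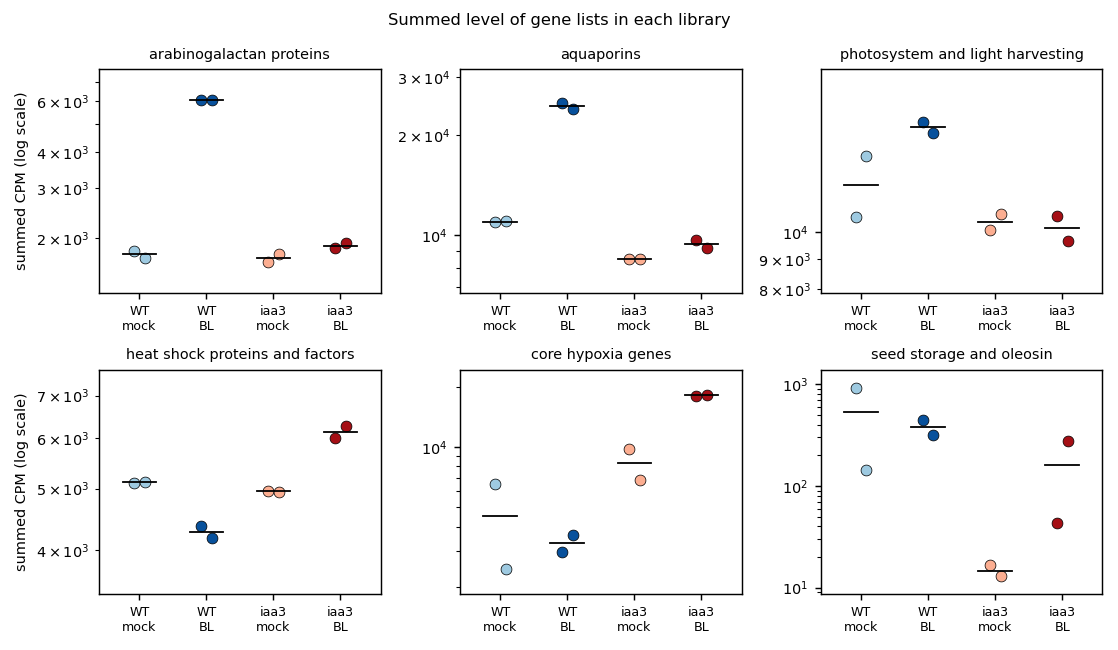
Each panel gives the summed CPM of a gene list on a logarithmic axis in the 8 libraries, with points for libraries and bars for group means. Arabinogalactan protein and aquaporin sums are far higher in wild type BL than in any other group and rise slightly with BL in *iaa3*. Heat shock and hypoxia sums are highest in *iaa3* BL, and the wild type mock libraries are far apart for hypoxia and seed storage genes.

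Aquaporins are the water channels of the plasma membrane and the vacuole. Of 29 aquaporins, 17 were called lower and 1 higher (13 to 17 lower as libraries were left out), with 11 lost and 5 weakened activations and a median difference of -0.57. Their summed level went from 10955 and 11045 CPM to 24957 and 24085 in wild type, and was 8511 and 8514 with mock and 9690 and 9156 with BL in *iaa3*. *PIP1C* had 604 and 591 CPM with mock and 3040 and 2814 with BL in wild type, and 462 and 457 with mock and 624 and 573 with BL in *iaa3*. Its difference in response was -1.91 ± 0.10 (adjusted p = 1.39e-06), with a log2 fold change of 0.38 left in *iaa3*. The 1 higher member, *NIP2;1*, which transports lactic acid in low oxygen, had 21.7 and 5.98 CPM with mock and 4.17 and 5.85 with BL in wild type, and 39.8 and 17.3 with mock and 120 and 141 with BL in *iaa3*, a form like that of *HB1*. Of 15 tubulins, 9 were called lower and 0 higher, at a median difference of -0.39. *TUB8* had 60.6 and 64.8 CPM with mock and 182 and 184 with BL in wild type, and 40.1 and 39.7 with mock and 57.2 and 51.7 with BL in *iaa3*. Of 17 ketoacyl-CoA synthases, which build very long fatty acids for wax, 5 were called lower and 1 higher. *KCS9* had log2 fold changes of 1.95 and 0.20.

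Of 43 heat shock proteins and factors, 25 were called higher and 1 lower (21 to 24 higher as libraries were left out), comprising 11 gained activations, 5 reversals, 3 lost repressions and 6 with neither response called. The median difference was 0.64. BL repressed 10 of the 43 and activated 3 in wild type, and activated 18 and repressed 0 in *iaa3*. The summed level was 5096 and 5131 CPM with mock and 4371 and 4189 with BL in wild type, and 4959 and 4945 with mock and 6014 and 6265 with BL in *iaa3*, with no overlap between the BL groups or between either of them and mock.

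Core hypoxia genes had a median difference of 2.46 on the log2 scale, with 22 of 26 called higher and 0 lower. They included 11 gained activations, 4 lost repressions and 1 reversal. *PDC2*, a pyruvate decarboxylase of fermentation, had 30.2 and 23.6 CPM with mock and 18.9 and 20.0 with BL in wild type, and 38.7 and 31.3 with mock and 92.9 and 105 with BL in *iaa3*, a difference of 1.97 ± 0.18 (adjusted p = 4.47e-05). *AlaAT1*, alanine aminotransferase, had 203 and 157 CPM with mock and 141 and 148 with BL in wild type, and 432 and 355 with mock and 1010 and 1216 with BL in *iaa3*. For both genes the *iaa3* mock libraries were above all wild type libraries and the *iaa3* BL libraries higher still. The list's count depended on single libraries, with 6 called without wild type BL library 1, 7 without wild type BL library 2, 11 without *iaa3* mock library 2 and 26 without wild type mock library 2. It also depended on the fit, with 14 called by DESeq2, 14 by voom and 3 by the robust edgeR fit. The median difference was 1.35 without wild type mock library 1 and 3.10 without library 2. Its summed level was 6547 and 2445 CPM with mock and 2997 and 3631 with BL in wild type, and 9815 and 6857 with mock and 18080 and 18297 with BL in *iaa3*. The spread within wild type mock thus reached past wild type BL on both sides. With wild type mock library 1 left out, 17 members were called higher. Whether a difference in oxygen supply during handling had a part in these values was not tested.

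Among other hormone lists, 7 of 9 type-A response regulators, fast feedback genes of cytokinin signalling, were called higher and 0 lower, with a median difference of 0.82. *ARR6* had 9.34 and 11.2 CPM with mock and 3.67 and 3.13 with BL in wild type, and 2.95 and 2.31 with mock and 3.33 and 3.84 with BL in *iaa3*, so *iaa3* was at the level of wild type BL with or without treatment. *ARR7* had log2 fold changes of -0.71 and 1.04. The number called was 4 without either wild type BL library, *iaa3* mock library 2 or *iaa3* BL library 2. Of 10 ACC synthases, 1 was called lower and 2 higher, with 0 higher without either wild type BL library or *iaa3* BL library 2 and 1 without wild type mock library 2 or either *iaa3* mock library. *ACS8* had 1.04 and 1.56 CPM with mock and 14 and 15.2 with BL in wild type, and between 2.18 and 3.36 in all *iaa3* libraries. Of 9 gibberellin oxidases, 2 were called lower (1 without wild type BL library 1, *iaa3* mock library 2 or *iaa3* BL library 1) and 0 higher, *GA2OX6* with log2 fold changes of 1.62 and 0.38. Jasmonate, abscisic acid and ethylene-factor lists were mixed. Called lower and higher were 2 and 3 of 12 *JAZ* genes, and 2 and 1 of 8 clade A phosphatases. For AP2/ERF factors the counts were 5 and 6 of 50 (22% called). For WRKY factors they were 4 and 9 of 59 (22%), both lists being near the background of 17.6%. These counts moved with single libraries. For WRKY factors they were 1 and 3 without wild type BL library 1, 2 and 6 without wild type BL library 2, and 0 and 4 without *iaa3* mock library 2. AP2/ERF factors had 2 and 11 without wild type mock library 2 and 3 and 3 without wild type BL library 1, and between 2 and 3 lower without any other library but wild type mock library 1. *JAZ* genes had 0 lower without wild type BL library 2 or *iaa3* mock library 2 and 1 without wild type BL library 1 or *iaa3* BL library 1. The phosphatases had 0 lower without *iaa3* mock library 2, 1 lower without either wild type BL library or *iaa3* BL library 2, and 0 higher without any library but wild type mock library 2 or *iaa3* BL library 1. Of 14 calmodulin-like and touch genes, 5 were called lower and 2 higher (1 higher without either wild type BL library), with *CAM8* weakened (4.47 and 1.29) and *AT1G76640*, a calcium-binding EF-hand protein, gained (-0.13 and 4.65).

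Of 42 photosystem and light-harvesting genes, 16 were called lower and 0 higher, at a median difference of -0.43 and 10 called with library size alone. The count was 5 without wild type BL library 1 or *iaa3* mock library 2, 6 without wild type BL library 2 or *iaa3* BL library 2, and 35 without wild type mock library 2. Their summed level was 10634 and 13499 CPM with mock and 15487 and 14818 with BL in wild type, and 10108 and 10761 with mock and 10671 and 9688 with BL in *iaa3*. *CAB2*, a light-harvesting chlorophyll-binding protein, had 7.53 and 7.22 CPM with mock and 19.9 and 13.3 with BL in wild type, and between 4.48 and 6.35 in *iaa3*. Of 13 clock genes, 0 were called lower and 3 higher (8 without wild type mock library 2, 1 without wild type mock library 1 or *iaa3* mock library 2, and 7 with the replicate number as a block), among them *CCA1*, a morning MYB factor, with log2 fold changes of -0.29 and 0.97. Beside LBD factors, pectin methylesterases, BR biosynthesis and seed storage genes, the lists with shares below the background of 17.6% were root hair (0 of 14), flavonoid (0 of 4), cyclins (1 of 26), glucosinolate (1 of 16), chlorophyll biosynthesis (1 of 13), xylem and secondary wall (1 of 9) and ribosomal proteins (5 of 47). The ribosomal count was 5 lower and 3 higher without wild type mock library 2 and between 0 and 2 higher without any other library, and 5 glucosinolate genes were called without *iaa3* BL library 1 and 3 chlorophyll biosynthesis genes without wild type mock library 2. Lists near the background of 17.6% were alpha-expansins (22.2% called), gibberellin oxidases (22.2%), clock genes (23.1%), AP2/ERF factors (22%) and WRKY factors (22%). Of 9 class III peroxidases, 3 were called higher, all lost repressions. Summed root hair transcripts were between 60.7 and 87.2 CPM in all libraries, and summed xylem transcripts between 87.4 and 118 in wild type and between 23.2 and 32.9 in *iaa3*, with or without BL.

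Promoter letters were compared over 250 bases before to 50 after the start of 20280 tested loci. CACATG was present in 12.9% of all of them, in 19.0% of the 942 lost activations and in 28.7% of the 94 weakened activations, and in 32.6% of the arabinogalactan list and 31.0% of the aquaporin list. TGTCTC was present in 13.7% of all, 14.4% of lost activations and 38.5% of the Aux/IAA list. TGTCGG was present in 5.55% of all, 6.69% of lost activations and 23.1% of the Aux/IAA list, and in 5.60% of lost repressions and 7.19% of gained activations. CACGTG was present in 8.80% of all, 9.87% of lost activations and 12.4% of gained activations. CGTGTG was present in 6.76% of all and 8.28% of lost activations, and CGTGCG in 2.16% and 2.34%. For these 2 motifs the shares were 8.96% and 4.20% in lost repressions, and 8.82% and 1.96% in gained activations. The heat shock element was present in 0.552% of all, 0.318% of lost activations, 3.27% of gained activations, 6.82% of the wild type repressions that reversed and 14% of the heat shock list. Both strands were searched, CACGTG reads the same on both, CACGTG and CGTGTG can overlap, and these shares carry no test. Median gene length was 2381 bases over all tested loci, 2179 for lost activations and 2191 for gained activations.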

How the data were processed

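The authors deposited raw read counts per locus, without normalization, in 1 table with a column for each of 8 libraries. The submitters' processing notes name CASAVA, TopHat, HTSeq and TAIR9. Strand and reads matching several loci are not given in the sources used here, so counts of overlapping genes and near-identical copies are uncertain. Total counts were 18107519 to 23183988. Limits from counts hold for counting error alone, because reads carry no molecular identifiers.

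The analysis used edgeR 4.0.16 under R 4.3.3 (filterByExpr, TMM factors, quasi-likelihood fit with 4 group coefficients over all libraries), and the difference in BL response was called where the p-value adjusted by Benjamini-Hochberg was under 0.05. To sort classes only, responses were called by the study's rule (1.5-fold, p-value under 0.01 before adjustment). Standard errors come from the F statistic. A locus with at most 3 counts in each library of a group has its fold given as a bound or not at all. The fit was also run on counts simulated with differences planted in *iaa3* BL, and the outcome is not reported here. The simulation held no aberrant library, so it cannot show how the fit behaves with one.

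Named genes were, per class and direction, those with the largest differences among called loci with a symbol, a mean log2 CPM of at least 3, no overlap and no group at the count limit (6 for lost, 5 for gained, 3 otherwise). To these were added the 2 lost and 2 gained loci at the count limit with the highest level, the 3 members of each list with the smallest p-value, *IAA3* and the loci nearest the threshold. Other genes named within lists or classes were chosen after their values were seen. Members, lists and tests were chosen with earlier results of these data known. From the 36 lists, 19 members were removed because a shared name matched another protein.

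Alternatives were DESeq2 1.42.0, library size alone, RLE factors, a minimum of 10 counts per library, no filter, limma 3.58.1 with voom, a robust fit, a replicate block, other thresholds and each library left out in turn. Symbols and promoters came from RefSeq on TAIR10.1, matched by locus (20281 of 20415 tested loci). The count table holds no coordinates.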

Additional observations from a re-analysis of the deposited data

Results flagged for a closer look

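The BL response differed between wild type and *iaa3* at 3589 loci by the test of the difference itself, and is set apart here because 2 groups responded unlike each other to the same treatment. At 58 of these the responses were called in opposite directions, 44 of them repressed in wild type and activated in *iaa3*. With 2 libraries per group, single aberrant libraries could not be tested for within groups.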

How the results depend on the processing

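Over 130 named loci, 1887 values under the alternatives kept their side of the threshold, 174 lost it, 10 gained it and 0 changed sign. Calls shared with the 3589 of the main fit were 70.5% to 98.6% of them under other fits and 55.6% to 88.8% with a library left out. With a library left out, the counts ranged from 2028 to 4137 for all called loci, 760 to 1775 higher in *iaa3*, 1268 to 2362 lower, 974 to 1392 lost, 97 to 140 weakened, 282 to 577 gained, 8 to 31 strengthened, 42 to 121 reversed and 607 to 1956 with neither response called. When a library was left out, the lone library of its group was assumed to vary like the other groups. DESeq2 called 2616 loci, with 1002 in the last class. The replicate block called 3889 loci. Numbers were not taken as pairing the samples in the main fit. Same-numbered libraries deviated together with a correlation of 0.24 between wild type mock and *iaa3* mock. Between other groups the correlations were -0.06 to 0.06. A deviation shared by same-numbered mock libraries was thus not modelled in the main fit. Calling the difference at 1.5-fold and an unadjusted p-value under 0.01 gave 2296 loci, 969 higher and 1327 lower, with 535 in the last class. Requiring a 2-fold difference beside the adjusted p-value gave 1029, 416 higher and 613 lower, with 611 lost, 76 weakened, 230 gained, 5 strengthened and 49 with neither response called, by construction fewer. Calling responses at 2-fold gave 709 lost, 51 weakened, 234 gained, 7 strengthened, 14 reversed and 2574 with neither, and calling them by size alone gave 161 reversed. Depth limited low genes, with 18 lost and 11 gained loci at or below 3 counts in a whole group.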
